A study of Sus scrofa with 2 samples.

Results

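The genes described here are 3 nuclear receptors for the ovarian steroids, ESR1 and ESR2 for estrogen and PGR for progesterone, and the orphan nuclear receptor NR5A1, also known as steroidogenic factor. Their probes were found by matching the RefSeq accession printed for each probe to the accessions of the 4 genes in the pig annotation, which gave 9 of the 43597 probes on the array and 4 of the 2459 genes that could be named in this way. The study compared ovaries of minipigs (Midget minipigs) with ovaries of conventional pigs (Yorkshire sows) to find genes that differ with follicle development. The ovaries were taken from cycling animals of the same age on day 15 of the estrous cycle, when the corpora lutea regress, and the corpora lutea were cut away before RNA extraction. Total RNA was labelled with Cy3 and hybridised to 1 single-colour Agilent porcine array per breed (called the minipig array and the conventional array), and the sources used here do not state whether an array held RNA of 1 animal or of a pool.

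Steroid receptors of the nuclear family are transcription factors that bind their hormone, dimerise on DNA and recruit coregulators. In the ovary, estrogen receptor beta is the main form in granulosa cells and estrogen receptor alpha is found chiefly in theca and stroma, while the progesterone receptor is induced in granulosa cells by the luteinizing hormone surge and is needed for ovulation. NR5A1 needs no steroid ligand and drives transcription of the genes that make steroids, together with gonadotropin receptor and inhibin genes.

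The scanner intensity of a spot, in arbitrary units, is background-subtracted and corrected for spatial trends within its array. The 75th percentile of the intensity was 494 for the minipig array and 513 for the conventional array, where 88.1% and 85.2% of the probes, respectively, carried the scanner's flag for being well above background. Fold changes and log2 differences were taken after the 75th percentile of each array had been set to 0 on the log2 scale, so they depart slightly from the ratio of the intensities given beside them. Every log2 difference is the conventional array minus the minipig array. The breeds are named as in the scanner files. A deposited table of log2 values for 5617 probes gives them the other way round, since its minipig column follows the conventional pig scanner file minus a constant to within 7.46e-07 and its conventional pig column follows the minipig scanner file to within 5.24e-07, and by that table every direction given here is the opposite one. The table held 0 of the 9 probes of the 4 genes, and which labelling is right was not settled here. All 28 genes of the lists below that it held had the opposite sign in it, which follows from the exchange of columns and adds nothing to it. With 1 array per breed there is no replicate of a breed, no test was run, and the number of arrays limits the precision. The only repeated measurement was that of probes printed several times, and it gave an SD of 0.25 for the log2 difference between 2 single spots (42 probes), which covers spots and not animals. The median log2 difference of the 38883 probes with a value was -0.12. Median centring moved this median by 0.15, and quantile and loess normalization each moved it by 0.11, all toward the conventional array, so that a small difference is to be read relative to these shifts.

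Of the 4 genes, 3 had a value and none of these was past 2-fold, and of their 8 probes that gave a difference or bound, 0 were past 2-fold in either direction. With no filter on dim probes ESR2 also had a value, past 2-fold, but not after normexp correction (0.08). Across all 38883 such probes, 2909 (7.48%) were 2-fold or more higher on the conventional array and 3475 (8.94%) on the minipig array, a split that was 3840 against 2579 after median centring and 2020 against 1411 after normexp background correction. Across the 2363 named genes with a value, 277 (11.7%) were 2-fold or more higher on the conventional array and 188 (7.96%) on the minipig array. With so few genes, a count of 0 lies near these shares and is not a result about the receptors.

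NR5A1 was read by 3 probes, all matched to the transcript NM_214179 and all well above background on both arrays. Probe A_72_P077746 had an intensity of 341 on the minipig array against 214 on the conventional array, and was 1.65-fold higher on the minipig array (log2 difference -0.72). Probe A_72_P444602 read 95.2 and 100.4 in the same order, with a log2 difference of 0.02. Probe A_72_P444608 read 138 and 240.3, and was 1.68-fold higher on the conventional array (0.75). Thus the outer probes gave opposite orders of the arrays and the remaining probe gave nearly equal levels. The outer differences were 2.87 and 2.97 times the SD of repeated spots, and the middle one 0.09 times. From the scanner's own error model, which gave the first probe an error of 34.2 on the minipig array against 21.5 on the conventional array, the SD of each of the outer log2 differences came to 0.20 and 0.21. Among all probes measured on both arrays, the first probe lay at percentile 14.4 of the log2 differences and the last at percentile 88.3.

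**Figure D1:**
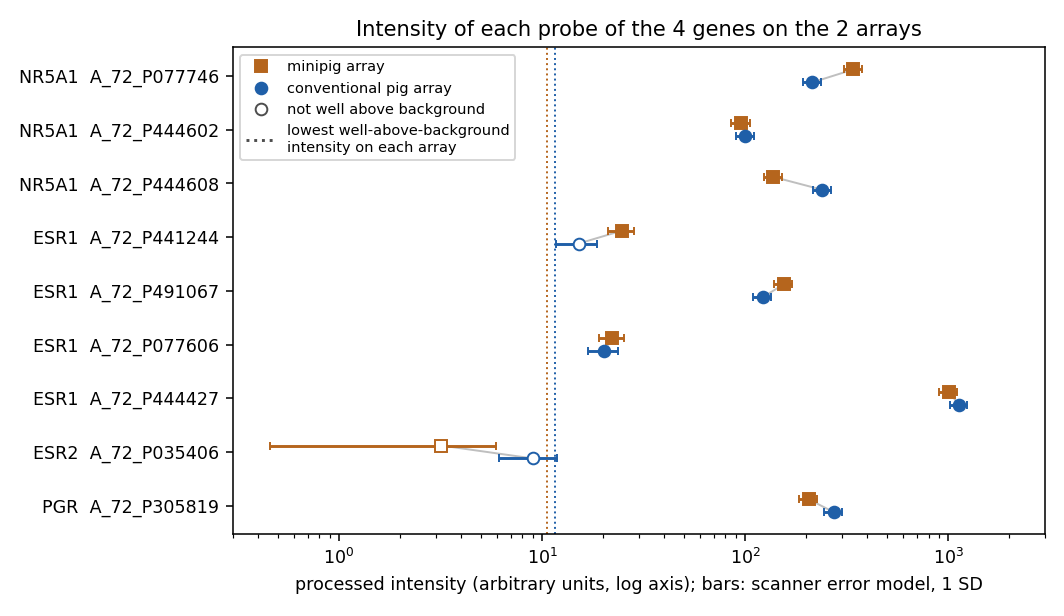
Scanner intensity (arbitrary units, log axis) of each of the 9 probes of NR5A1, ESR1, ESR2 and PGR on the minipig array (squares) and the conventional array (circles), with the 1 SD error of the scanner's error model and open symbols where the probe was not well above background. The NR5A1 probes change order between the arrays (341 and 214 for one, 138 and 240.3 for another), and the ESR2 probe is open on both arrays.

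Taken as the median over its probes, NR5A1 had a log2 difference of 0.02, which lay at percentile 49.0 of the 2363 genes, and the mean over its probes was also 0.02. This central value rests on probes that disagreed by 1.47 on the log2 scale from the lowest to the highest. Among the 248 genes with 3 probes that carried the background flag on each array, the median of this range was 0.43 and the 95th percentile was 1.51. The range was wider than that of NR5A1 in 13 of them (5.24%). Probes of both signs were found in 78 of these genes (31.5%), so the opposite signs alone did not set NR5A1 apart. Among the 85 genes with 3 such probes whose mean level lay within 1 log2 unit of that of NR5A1, the median range was 0.65, and 7 had a wider range than NR5A1. The opposite signs of the outer NR5A1 probes were present under every alternative of background correction, scaling, filtering and detrending that was run. The size of the disagreement was not as stable, since the range was 0.90 after normexp correction and 1.17 in the signal before the scanner's multiplicative detrending, an alternative added after the data were seen, and 33 and 27 genes, respectively, then had a wider one.

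**Figure D2:**
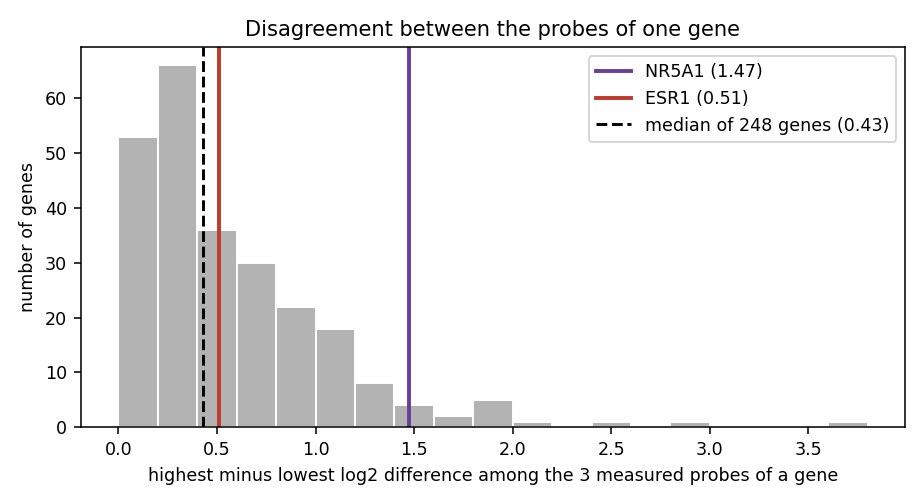
Number of genes (y axis) by the range between the highest and lowest log2 difference among their 3 measured probes (x axis), over 248 genes, with lines for NR5A1, ESR1 and the median gene. NR5A1 lies in the upper tail at 1.47 and ESR1 close to the median of 0.43, at 0.51.

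The probes of NR5A1 also differed in their place on the array. A_72_P077746 and A_72_P444602 were printed in the same row near an edge, where the median log2 difference of the surrounding probes was -0.24 for each (356 and 241 probes), whereas around A_72_P444608 it was -0.01 (373 probes). The scanner's multiplicative detrending had moved the first of these by 0.06 on the minipig array and by -0.25 on the conventional array on the log2 scale, and the second by 0.15 and -0.16. At the third it made nearly the same change on both arrays, with -0.06 on each. In the signal before this detrending the gene's log2 difference was 0.34, and after subtraction of the neighbours' median it was 0.26 (both alternatives added after the data were seen). The latter left a range of 1.23 between the probes, with 21 genes wider. The part of array position in the disagreement between the probes was not tested beyond these values. All 3 probes were assigned to 1 accession, and which part of the transcript each of them reads was not analysed here.

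ESR1, which encodes estrogen receptor alpha, was read by 4 probes of the transcript NM_214220. Probe A_72_P491067 had an intensity of 155 on the minipig array against 122 on the conventional array, 1.32-fold higher on the minipig array (log2 difference -0.40). Probe A_72_P077606 read 22.1 and 20.2, with a log2 difference of -0.19. Probe A_72_P444427 read 1006 and 1130, with a log2 difference of 0.11. The remaining probe, A_72_P441244, was dim: it read 24.8 on the minipig array against 15.1 on the conventional array, where it was not well above background. For such a probe the brighter array was set against the lowest flagged intensity of the dim array. The probe's own intensity there was used if it was higher, as was the case here. This bound is therefore the measured difference and not a minimum, 1.70-fold higher on the minipig array (log2 difference -0.76). The error model gave it an SD of 0.40. This bound rests on the scaling and background correction, since it was -0.44 under quantile normalization and -0.18 after normexp correction. Of the measured probes, A_72_P491067 and A_72_P077606 were on the minipig side and A_72_P444427 on the other. The bound of A_72_P441244 was also on the minipig side. It passed the background filter on the minipig array alone, which fixed its side, so it does not add to the measured probes. Of the 3 measured probes, A_72_P491067 differed by 1.57 times the SD of repeated spots and the others by less than 1 SD (0.73 and 0.45 times).

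The median over the 4 probes, bound included, put ESR1 at a log2 difference of -0.29, 1.22-fold higher on the minipig array and at percentile 28.6 of the named genes. Over the measured probes alone the median was -0.19. With the bound included, the gene stayed on the minipig side under median centring (-0.14), quantile normalization (-0.14), loess normalization (-0.11) and normexp correction (-0.15). Over the measured probes alone the median was -0.03, -0.02, 0.03 and -0.11 in the same order, so this direction rested partly on the bound. A_72_P077606 turned to 0.13 under quantile and 0.11 under loess normalization, and A_72_P444427 to -0.02 under quantile normalization. When the brightest probe alone stood for the gene, the direction turned to 0.11. In contrast to NR5A1, the 3 measured probes of ESR1 spanned only 0.51, and 106 of the 248 genes with 3 measured probes (42.7%) spanned more. With the bound included, the range of ESR1 was 0.88. The range of the measured probes was 0.59 after normexp correction, with 65 genes wider, and 0.68 before detrending, with 82 wider. Under loess normalization it was 0.36, with 154 wider. As for the NR5A1 probes near the edge, the surroundings of A_72_P444427 had a negative median, -0.22 over 313 probes, against values from -0.07 to -0.04 around the other ESR1 probes. The difference of ESR1 was thus small next to the central range of all probes, in which the middle 50% ran from -0.51 to 0.32.

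ESR2, which encodes estrogen receptor beta, had 1 probe, A_72_P035406 for the transcript NM_001001533. Its intensity was 3.19 on the minipig array (error 2.73) against 8.99 on the conventional array (error 2.88). Neither array had the probe well above background, the lowest intensities so flagged being 10.6 and 11.5, and no fold change is given. With no filter on dim probes the log2 difference was 1.44, past 2-fold, but the error model gave it an SD of 1.32. This unfiltered difference was 0.08 after normexp correction and 1.72 under quantile normalization. A difference in ESR2 was therefore not detectable with this probe. The probes around it had a median log2 difference of 0.06.

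PGR had 1 probe, A_72_P305819 for the transcript NM_001166488, well above background on both arrays. Its intensity was 205 on the minipig array (error 20.7) against 273 on the conventional array (error 27.4). It was 1.28-fold higher on the conventional array, a log2 difference of 0.36 with an SD of 0.21 from the error model. This was 1.41 times the SD of repeated spots and lay at percentile 67.2 of the named genes. PGR was on the conventional pig side under every alternative run, from 0.24 after normexp correction to 0.51 after median centring. With 1 probe, this value has no other probe of the gene to set it beside.

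**Figure D3:**
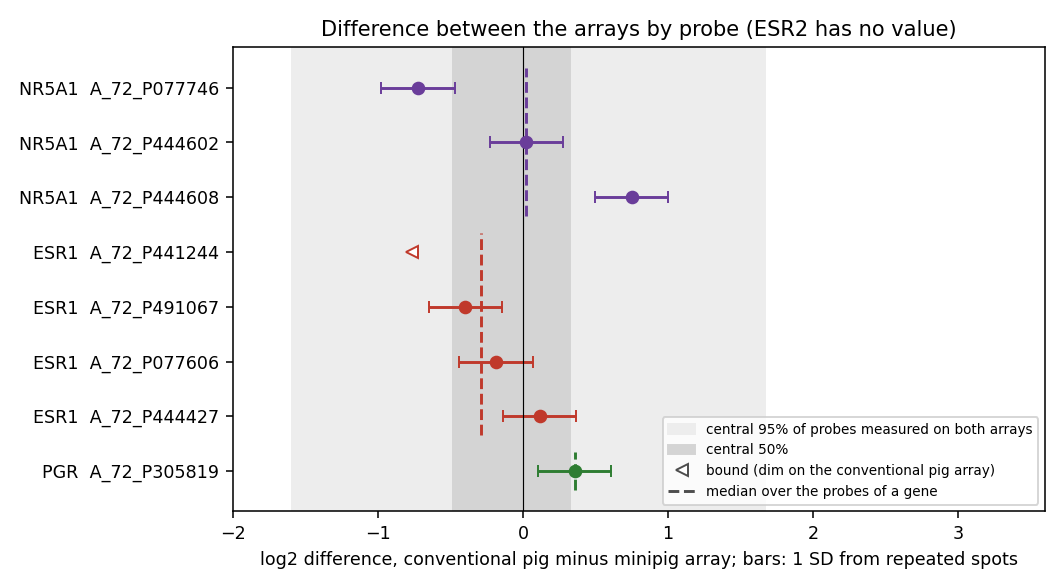
Log2 difference (conventional minus minipig array) of the 8 probes of NR5A1, ESR1 and PGR that had one, with bars of 1 SD from repeated spots, dashed lines at the gene medians, an open triangle for the ESR1 bound, and shading for the central 50% and 95% of all probes measured on both arrays. The NR5A1 probes run from -0.72 to 0.75, and PGR is at 0.36. Of the ESR1 probes (median -0.29), 3 of 4 are on the minipig side, among them the bound, whose side was fixed by the background filter. A_72_P077606 turns positive under quantile and loess normalization and A_72_P444427 negative under quantile normalization.

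In order of the gene differences, PGR (0.36) stood above NR5A1 (0.02) and NR5A1 above ESR1 (-0.29 with its bound, -0.19 over the measured probes). The steps from PGR to NR5A1, from NR5A1 to ESR1 and from PGR to ESR1 were all smaller than the range between the NR5A1 probes. None of these genes thus differed from another beyond that spread. Among the 15 genes with a value in the lists of other nuclear receptors, those with the nearest log2 difference to NR5A1 were NR1H3 (0.03), VDR (-0.04) and NR1I3 (0.09), of which NR1H3 and VDR each changed sign in 4 of 9 alternatives. Nearest to ESR1, taken with its bound, were PPARD (-0.25), NR3C1 (-0.46) and THRA (-0.11, changing sign in 6 of 9 alternatives). Near PGR lay NR4A3 (0.41) and NR1I2 (0.24). This likeness is a distance between single differences over 2 arrays, and several of these genes have probes that disagree as well: those of PPARD gave -0.97 and 0.47, and those of NR1I2 ran from a bound of -2.23 to 0.53.

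**Figure D4:**
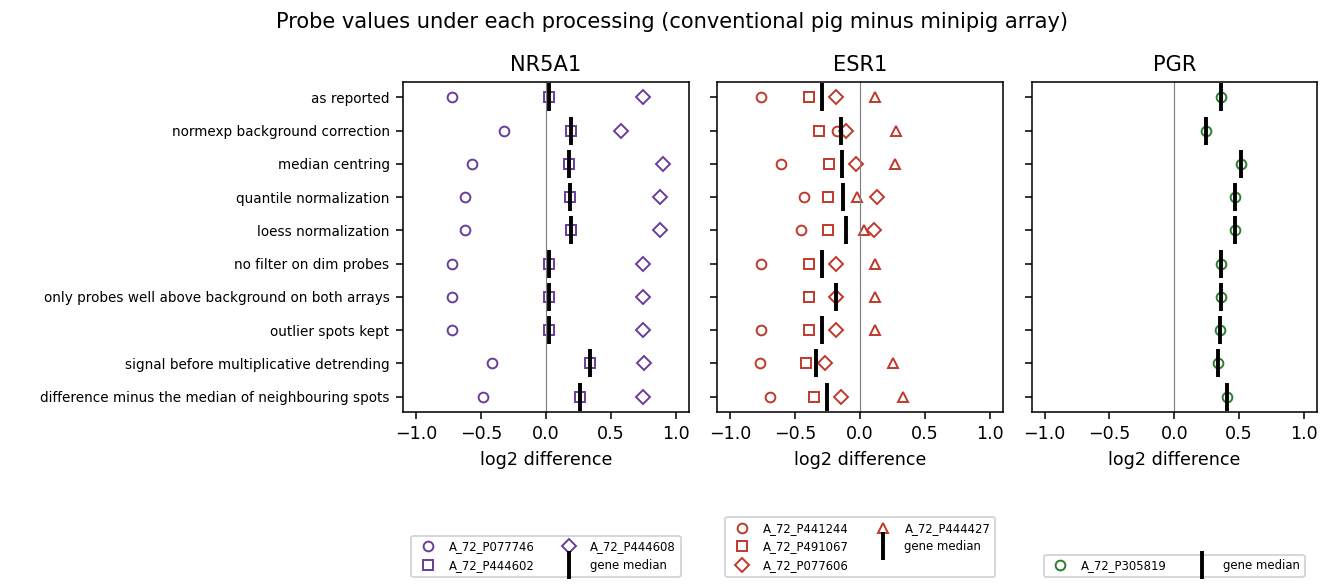
Log2 difference (conventional minus minipig array, x axis) of each probe of NR5A1, ESR1 and PGR (open symbols) and of the gene (black bars) under the reported processing and 9 alternatives (y axis). The outer NR5A1 probes lie on opposite sides of 0 in every line, the ESR1 probes A_72_P077606 and A_72_P444427 cross 0 under quantile normalization and the former also under loess normalization, and PGR stays between 0.24 and 0.51.

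Of the receptors for adrenal steroids, NR3C1 binds glucocorticoids and NR3C2 mineralocorticoids, and the latter matched no probe. NR3C1 was on the minipig side at -0.46, with 3 probes from -0.98 to -0.37. It was within 2-fold, like NR5A1, ESR1 and PGR, and stayed on the minipig side under each scaling. The estrogen-related receptors ESRRA, ESRRB and ESRRG likewise matched no probe. In the wider list of other nuclear receptors 13 of 38 genes had a value, with a median of -0.08 that changed sign after median centring (0.08), quantile and loess normalization (0.00 each), against a median of 0.04 over all 2363 genes. None was 2-fold or more higher on the conventional array (11.7% of all named genes were) and 3 were on the minipig array (7.96% of all named genes). These were NR0B1 (-2.43), which encodes a repressor of NR5A1 activity, PPARG (-1.75) and RXRG (-1.14), the last from 1 measured probe and 1 bound and past 2-fold in only 1 of 9 alternatives. NR0B1 was read by 1 probe, with an intensity of 118 on the minipig array against 22.7 on the conventional array, and its log2 difference was -1.18 after normexp correction. PPARG was also on the minipig side with each of its 3 probes, from -1.86 to -1.73.

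Progesterone can also act through membrane proteins unrelated to PGR, and 3 of the 4 measured here differed more than PGR did. Of 7 genes for membrane steroid receptors 4 had a value, and all 4 were on the conventional pig side under each alternative of scaling, filtering and detrending. PGRMC1, a membrane component that binds heme and is linked to progesterone signaling, was 4.33-fold higher on the conventional array (log2 difference 2.12; 3 probes from 1.99 to 2.21). For PAQR7, the membrane progestin receptor alpha, the intensity was 383 on the minipig array against 869 on the conventional array, 2.19-fold higher on the latter from 1 probe. PGRMC2 had a log2 difference of 0.86, with 4 probes from 0.79 to 0.96, and was past 2-fold only after median centring. PAQR8 was at 0.16, with probes at -0.20 and 0.52. The median of the 4 genes was 0.99. Thus the probes of PGRMC1 and PGRMC2 lay within 0.22 and 0.17 of each other, unlike those of NR5A1.

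Coregulators and chaperones, with which the steroid receptors assemble, had values for 7 of 22 genes. None was past 2-fold, against 11.7% (conventional side) and 7.96% (minipig side) of all named genes, and the median log2 difference was -0.29. All 7 were on the minipig side as reported and under quantile and loess normalization, but 3 turned to the other side after median centring, 1 after normexp correction, 2 in the signal before detrending and 3 after subtraction of the neighbours' median. The genes nearest 0 were the chaperone genes HSP90AA1 (-0.00, 6 probes) and PTGES3 (-0.02), which changed sign in 3 and 4 of 9 alternatives. Among 11 transcription factors that work with NR5A1 or the receptors in the ovary, 4 had a value, with a median of -0.38. GATA4, a partner of NR5A1 at steroidogenic promoters, was 2.19-fold higher on the minipig array (-1.13, 1 probe) and was within 2-fold in 4 of 9 alternatives. CTNNB1 (0.15) and WT1 (0.28) were nearest 0, and CTNNB1 changed sign under quantile and loess normalization.

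The genes that NR5A1 is known to control differed in both directions. Values were obtained for 14 of 16 of them, with a median log2 difference of -0.59, and 4 of these 14 were within 2-fold. Over all named genes, 11.7% were 2-fold or more higher on the conventional array and 7.96% on the minipig array. Higher by 2-fold or more on the conventional array were 4: HSD3B1 (3.11), STAR (3.07), CYP11A1 (2.63) and SCARB1 (2.46), which serve cholesterol uptake and transport and the first steps of progesterone synthesis. STAR had 6 probes, all between 2.98 and 3.36. Higher by 2-fold or more on the minipig array were 6: INSL3 (-3.76), FSHR (-3.63), INHA (-2.61), NR0B1 (-2.43), CYP17A1 (-1.74) and AMH (-1.03), of which all but NR0B1 are in the granulosa or theca marker lists. INSL3 and FSHR rest on 1 probe each, and FSHR and NR0B1 were at -2.63 and -1.18 after normexp correction. The probes of CYP17A1 gave -2.49 and -0.99, and those of AMH ran from -2.22 to -0.09, and AMH was within 2-fold in 2 of 9 alternatives. Nearest 0 were PRLR (-0.55) and CYP19A1 (0.09), one of the aromatase genes of the pig, whose probes gave -0.34 and 0.52. The aromatase genes CYP19A2 (-4.22, 1 probe) and CYP19A3 (-4.11, 2 probes), which are in no list and were looked up after the data were seen, were on the minipig side, at -3.57 and -3.43 after normexp correction. Binding of their transcripts to each other's probes was not tested. Thus 4 targets lay above and 6 below the range of the NR5A1 probes (-0.72 to 0.75), and the other 4 inside it. The 10 genes outside this range kept their direction under each scaling.

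Targets of the estrogen receptors had values for 8 of 11 genes, with a median of -0.02 that changed sign in 5 of 12 alternatives, among them median centring (0.13), quantile (0.12) and loess normalization (0.11). Higher by 2-fold or more on the conventional array were OXTR (4.81), CTSD (1.30) and XBP1 (1.12), and FSHR (-3.63) was 2-fold or more higher on the minipig array. OXTR, the oxytocin receptor, was read by 1 probe with an intensity of 58.9 on the minipig array against 1714 on the conventional array, a 28.0-fold difference that was 12.6-fold after normexp correction (3.65). XBP1 was within 2-fold in 2 of 9 alternatives. PGR, itself a target of estrogen receptor alpha, was with IGF1 (-0.40) one of the genes nearest 0 in this list. Targets of the progesterone receptor had values for 7 of 13 genes, with a median of -0.38. AREG (3.01) and IL6 (1.24) were 2-fold or more higher on the conventional array, and CITED2 (-1.86) and PPARG (-1.75) on the minipig array, while ADAMTS1 (-0.38) and HIF1A (-0.65) were nearest 0. Of these, IL6 was within 2-fold after normexp correction (0.90). The target lists of all 3 kinds of receptor thus held genes past 2-fold in both directions, as did 11.7% (conventional side) and 7.96% (minipig side) of all named genes. With so few genes in a list, these counts are not a result about the receptors.

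**Figure D5:**
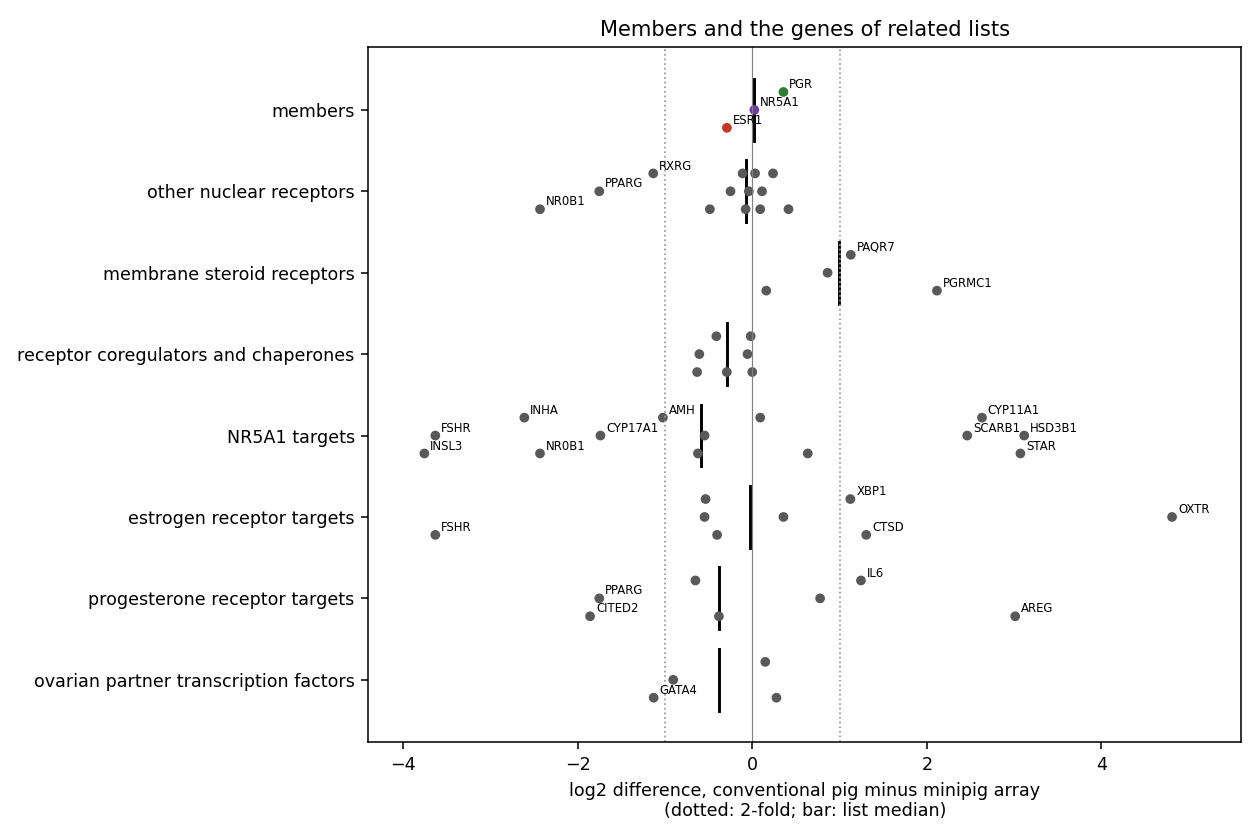
Log2 difference (conventional minus minipig array, x axis) of NR5A1, ESR1 and PGR and of each gene with a value in the related lists (y axis), with black bars at the list medians, dotted lines at 2-fold and names for genes past it. With the ESR1 bound included, NR5A1, ESR1 and PGR lie between -0.29 and 0.36, and NR5A1 targets run from -3.76 to 3.11. The medians of other nuclear receptors and estrogen receptor targets change sign after median centring and under quantile and loess normalization.

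Several of these target genes also mark cell types, and the marker lists differed along with them. In whole tissue, fewer cells of a type and less RNA per cell cannot be told apart. Of the ovarian markers, 7 of 10 genes for granulosa, 3 of 3 for theca and 5 of 8 for oocytes had a value, and no marker gene that had a probe was below background on both arrays. The median log2 difference was -1.77 for granulosa, -1.74 for theca and -0.92 for oocyte markers. For a sum of levels, each gene was given 1 probe, the one with the highest mean log2 level, and the same probe was used on both arrays. Relative to the array's 75th percentile, the sums were 52.2 on the minipig array against 18.3 on the conventional array for granulosa markers, 84.1 and 13.6 for theca markers and 3.44 and 1.55 for oocyte markers. On the minipig array INHBA was the brightest granulosa marker (intensity 7910 and 545), although its 2 probes gave log2 differences of -3.91 and 0.37, while on the conventional array it was CYP19A1 (3740 and 5565). INSL3 (35583 and 2729) was the brightest theca marker on the minipig array, and ZP2 the brightest oocyte marker there, although its 2 probes gave -1.96 and 0.46. Luteal and steroidogenic markers (6 of 6) had a median of 1.48 and a sum of 130 on the minipig array against 493 on the conventional array, with STAR the brightest on the latter. Of these 6 genes 4 were on the conventional side, among them OXT (0.33), and 2 on the minipig side, LHCGR (-0.62) and PRLR (-0.55). Of the same 6 genes 5 are also in the NR5A1 target list, as are 4 of 10 granulosa and 3 of 3 theca markers. Accordingly, 3 of the 4 NR5A1 targets 2-fold or more higher on the conventional array are luteal markers, and 5 of the 6 on the other side are granulosa or theca markers. The part of cell composition in the values of NR5A1, ESR1, PGR and their targets was not tested.

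Smooth muscle markers (3 of 5) had a median of -1.32 and a sum of 167 on the minipig array against 112 on the conventional array, with ACTA2 the brightest. On the minipig array DES was 3.99-fold and CNN1 2.49-fold higher, while ACTA2 was at 0.10 and changed sign under quantile and loess normalization. Endothelial markers (2 of 6) had a median of 0.46 and sums of 5.27 and 8.09, with PECAM1 the brightest. Immune markers (3 of 5) had a median of 0.22 and sums of 7.94 and 9.21, with CD163 the brightest. CD14 was at 1.04 (0.80 after normexp correction), CD3E at 0.22 and CD163 at -0.25. Oviduct and surface epithelial markers (2 of 6) had a median of -0.51 and sums of 2.44 and 2.02, with KRT8 the brightest. Each of these 8 marker medians kept its sign under all alternatives run on the scanner files, and the part of these cells in the receptor values was not tested.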

How the data were processed

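The scanned arrays were read with Agilent Feature Extraction 10.7.3.1, and its intensity values were deposited, background-subtracted and spatially detrended but not normalized between arrays. The deposited log2 table (column medians -0.93 for minipig and -0.66 for conventional pig) is the log2 intensity minus 1 constant per column (9.00 and 8.94), holds only probes differing at least 2-fold, and carries the opposite breeds. The name of its normalization is not given in the sources used here. Control spots and outlier spots (5 for minipig, 10 for conventional pig) were left out, spots of a probe were averaged as log2 values and the 75th percentile was subtracted. No spot was saturated. Genes took the median of their probes, with bounds. RefSeq names (Sscrofa11.1 annotation table) matched 5577 of 43597 probes (12.8%). Genes named are the 4 members, all other steroid, estrogen-related and membrane steroid receptors with a value, in each other list the genes past 2-fold and the 2 nearest 0, the 3 nuclear receptors nearest each member and 2 further aromatase genes; marker lists are given mainly by medians and sums. The values of 1 gene that this rule names are not reported here. Members and lists were chosen with earlier results of these data known. Alternatives were normexp (offset 50, on median spot signals), median centring, quantile and loess (span 0.3) normalization, other filters and probe rules, the deposited table and, added after the data were seen, the signal before detrending and subtraction of the median of probes within 10 rows and columns. Steps were tested on simulated data and run in Python 3.11.15 (numpy 2.4.6, pandas 2.3.3), with statsmodels 0.14.6 for loess, plots in matplotlib 3.10.9, and limma 3.58.1 in R 4.3.3 for normexp.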

Additional observations from a re-analysis of the deposited data

How the results depend on the processing

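A value was taken as moved when it changed by more than the SD of 0.25 between 2 single spots, or, for a count, by more than 1.5 times. PGR did so under 0 of 11 alternatives. NR5A1 (0.02) was -0.72 with the brightest probe, 0.39 without probe A_72_P077746, -0.35 without A_72_P444608 and, in an alternative added after the data were seen, 0.34 in the signal before multiplicative detrending, while 10 of 14 alternatives stayed within the SD. ESR1 (-0.29) was 0.11 with the brightest probe and stayed within the SD in 14 of 15. With the brightest probe, the median was -0.32 for NR5A1 targets, -0.64 for progesterone receptor targets, -2.96 for granulosa, -1.33 for oocyte and -0.99 for theca markers. The theca median was -1.19 under normexp, and the luteal median 1.19 under quantile normalization. Normexp gave 1411 probes on the minipig side past 2-fold, against 3475. The cause of these shifts was not tested. ESR2, with its probe not well above background on either array, has no reported value to compare. With no filter on dim probes it was 1.44, and its unfiltered difference was 0.08 after normexp correction. Adding probes by the gene name printed for them was not run, because the files used here have no such column, and the deposited table gave no value for the members. For 28 genes in 12 of the lists it gave values, all from probes past 2-fold and, with the breeds exchanged, all opposite in sign. By its labels the medians were 2.10 for NR5A1, -1.21 for estrogen receptor and 0.26 for progesterone receptor targets, 2.10 for other nuclear receptors, -1.62 for membrane steroid receptors and 1.13 for partner transcription factors. For markers they were 2.96 (granulosa), 3.13 (theca), 1.41 (oocyte), -3.07 (luteal), 1.66 (smooth muscle) and -1.27 (immune). Dim probes are limited by background: 4695 of 43597 were not well above it on either array.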
